A study of Mus musculus with 9 samples.

Results

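The condyle and the fossa are the facing sides of the temporomandibular joint, the hinge between the lower jaw and the skull. Condyle and fossa arrays were taken by their sample titles, 3 of each, which makes 6 of the 9 arrays of the series. All came from mouse embryos (Mus musculus) at embryonic day 16.5, with no treatment other than laser capture from frozen tissue. The other 3 arrays, of whole body at the same age, gave a reference level and took part in the estimate of the spread. Strain, sex, genotype and the number of embryos behind each sample are not given in the sources used here. The labels do not say which cells lay inside the captured outlines, so each array is a bulk sample of its side of the joint. The question is which transcripts part the moving side of the joint from its socket.

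The condyle is the rounded end of the mandible, and it grows through secondary cartilage that forms on a membrane bone. The fossa is a shallow depression of the squamous part of the temporal bone, which forms by intramembranous ossification, with osteoblasts laying down matrix without a cartilage template. Cranial neural crest cells of the first pharyngeal arch supply the mesenchyme of the mandible, and homeobox and paired-box transcription factors give these cells their regional identity. Cartilage is known by aggrecan and type II collagen, bone by type I collagen and sialoproteins, and osteocytes, the cells buried in bone, by Dmp1, Phex, Mepe and sclerostin (Sost).

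Array values are log2 intensities after quantile normalization, which gives all 9 arrays the same distribution, and are listed in the order of arrays 1, 2 and 3. A difference is condyle minus fossa on the log2 scale with its standard error (SE), and n is 3 per side throughout. A gene was called where its Benjamini-Hochberg adjusted p from limma was under 0.05. A gene was above background on an array where it exceeded the highest of 27 control probe sets for Bacillus subtilis transcripts. That limit was 2.90 to 2.94 on the condyle arrays and 3.86, 3.00 and 3.12 on the fossa arrays. Where the dimmer side was not above that limit on all 3 arrays, the fold is a lower bound, written "at least". It takes the brighter side as read, so it is not strict where an array of that side was at background. Before normalization the fossa arrays were dimmer in their upper part, with 75th percentiles of 4.03 to 4.29 against 4.81 to 4.90 in condyle. The share of probe sets above background was 45.4% to 46.9% on the condyle arrays and 30.3% to 43.8% on the fossa arrays, lowest on fossa 1. The Gapdh probe sets at the 3 prime end exceeded those at the 5 prime end by 5.33 to 6.86 in condyle and 3.69 to 5.31 in fossa. The part of these array differences in the results was not tested. Correlations across genes ran from 0.965 to 0.976 among condyle arrays and from 0.936 to 0.968 among fossa arrays, while pairs of 1 array from each side gave 0.939 to 0.971.

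Of 18193 genes tested, 1178 were called (6.48%), 684 higher in condyle (3.76%) and 494 higher in fossa (2.72%). The condyle side held more of the large differences: 228 genes exceeded 1 on the log2 scale and 24 exceeded 2, against 119 and 4 on the fossa side. Most of these genes were dim. The brighter side was above background on all 3 arrays for 692 called genes, 496 of them higher in condyle and 196 higher in fossa. Both sides were above it on all 3 arrays for 313. Of these, fewer were higher in condyle (140) than in fossa (173). Fossa 1 had a limit of 3.86 against 2.90 to 2.94 on the condyle arrays, so the filter was not equal for both directions. Its part in these splits was not tested. A further 321 called genes were at background on all 6 arrays, so no fold is given for them. Without the 5007 genes at background on all 6 joint arrays, 386 of 13186 genes were called (2.93%), 249 higher in condyle (1.89%) and 137 higher in fossa (1.04%). With a common floor at the highest background limit 80 were called (0.44%), 46 higher in condyle (0.253%) and 34 higher in fossa (0.187%), with 15 of the 55 called genes that the naming rule took. The median difference of all genes was -0.01. The direction of the whole comparison depends on the scaling. As deposited, 3430 genes were called (18.9% of those tested), 3036 higher in condyle (16.7%) and 394 higher in fossa (2.17%), so that 88.5% of the calls were higher in condyle. After centring each array on its 75th percentile 7154 were called, of which 9.94% were higher in condyle, and the median of all genes lay at 0.21 and -0.46 in these settings. Centring on the median gave 3362 calls, 82.8% of them higher in condyle, with a median of all genes of 0.18.

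**Figure D1:**
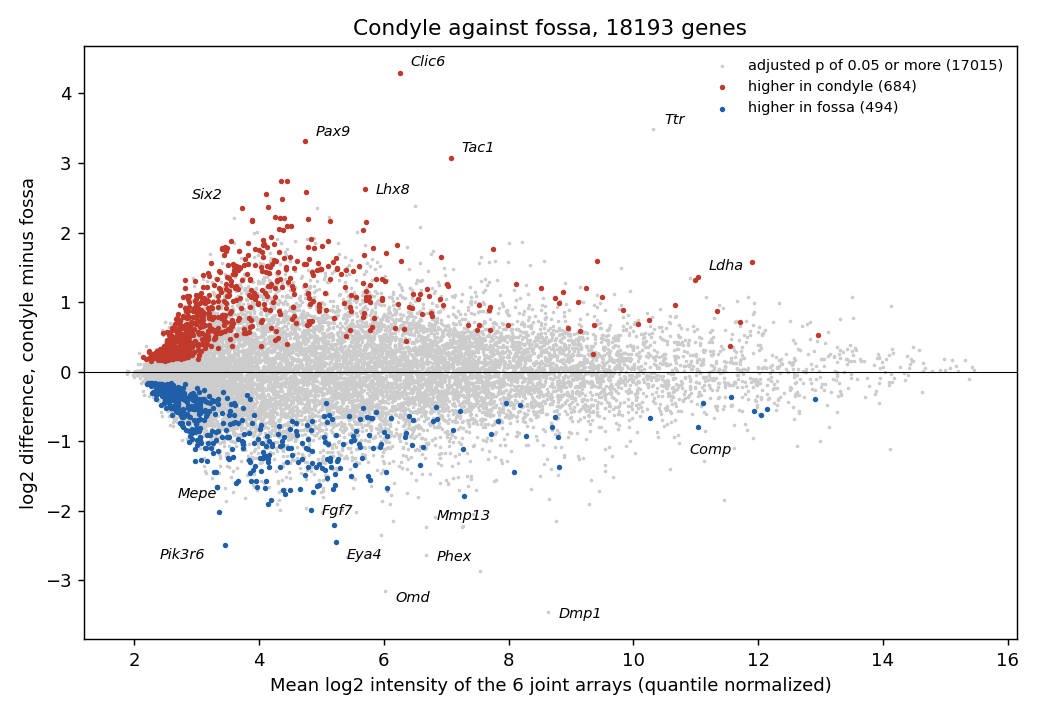
Each point is 1 of 18193 genes, with its mean log2 intensity over the 6 joint arrays on the x axis and the log2 difference, condyle minus fossa, on the y axis. Red points are the 684 genes called higher in condyle, blue points the 494 called higher in fossa and grey points all others. The called genes crowd at the dim end, and the large difference of Dmp1 stays grey, with arrays that disagree within each side.

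Of 64 measured transcription factors of first-arch and cranial mesenchyme, 6 were higher in condyle (Pax9, Lhx8, Six2, Barx1, Dlx2 and Shox2) and 1 was higher in fossa (Eya4). That is 10.9% of the list called in either direction against 6.48% of all genes. The list's median was 0.04 against -0.01 for all genes, and 26 of the 64 differences lay below 0. For 20 of the 64 all condyle arrays lay above all fossa arrays, and for 6 all fossa arrays lay above, where 17.7% and 17.8% of all genes did so. The list was chosen with results of these data known, so its counts are a description. Fewer cells of a type and less RNA per cell cannot be told apart in such bulk samples.

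Pax9, a paired-box factor of pharyngeal and tooth mesenchyme, read 6.09, 6.62 and 6.45 in condyle and 3.07, 3.09 and 3.07 in fossa. The sides did not come near each other, and only 1 fossa array was above its background limit. Pax9 was at least 8.15-fold higher in condyle, with a difference of 3.31 ± 0.32 (adjusted p = 0.00273). Lhx8, a LIM homeobox factor of first-arch mesenchyme, read 6.86, 7.52 and 6.64 against 4.66, 4.18 and 4.29. It was measured on all 6 arrays and was 6.20-fold higher in condyle (2.63 ± 0.32, adjusted p = 0.00638). Six2, a homeobox factor of head and kidney mesenchyme, read 4.92, 5.54 and 4.25 against 2.41, 2.38 and 2.87, with every fossa array at background. It was at least 2.98-fold higher (2.35 ± 0.31, adjusted p = 0.00818). Pax9 and Lhx8 stayed called under all 21 alternative settings, and Six2 under 20, its call being lost with a common floor.

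The stretch of 250 bases before each RefSeq start (assembly GRCm38.p6) is shown for 5 of the called genes, 3 higher in condyle and 2 higher in fossa. They are Pax9 (chr12:56695221-56695470, plus strand), Lhx8 (chr3:154330561-154330810, minus strand), Tac1 (chr6:7554811-7555060, plus strand), Mepe (chr5:104325079-104325328, plus strand) and Sost (chr11:101967016-101967265, minus strand). Capitals mark matches on either strand to TATAAA, the TATA box core, to TAATTA, a core bound by many homeodomain factors, or to TGTGGT, a core bound by Runt-domain factors.
Pax9: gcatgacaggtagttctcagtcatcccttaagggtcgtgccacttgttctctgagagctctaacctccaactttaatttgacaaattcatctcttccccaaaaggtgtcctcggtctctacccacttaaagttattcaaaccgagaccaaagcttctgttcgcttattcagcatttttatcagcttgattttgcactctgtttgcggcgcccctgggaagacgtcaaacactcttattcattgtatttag
Lhx8: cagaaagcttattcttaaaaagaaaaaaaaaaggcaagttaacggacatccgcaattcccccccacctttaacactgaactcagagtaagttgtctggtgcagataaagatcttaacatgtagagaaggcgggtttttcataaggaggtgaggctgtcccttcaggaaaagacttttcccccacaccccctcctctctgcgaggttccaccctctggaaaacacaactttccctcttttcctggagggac
Tac1: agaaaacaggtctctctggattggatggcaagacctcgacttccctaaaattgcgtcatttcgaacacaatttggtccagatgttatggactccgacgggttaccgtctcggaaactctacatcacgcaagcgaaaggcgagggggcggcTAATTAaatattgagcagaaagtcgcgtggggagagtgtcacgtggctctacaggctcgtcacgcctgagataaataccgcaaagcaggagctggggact
Mepe: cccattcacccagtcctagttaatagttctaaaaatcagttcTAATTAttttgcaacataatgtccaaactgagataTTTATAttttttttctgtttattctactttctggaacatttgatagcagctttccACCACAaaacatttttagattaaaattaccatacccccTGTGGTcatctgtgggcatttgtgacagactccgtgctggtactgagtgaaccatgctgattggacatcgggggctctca
Sost: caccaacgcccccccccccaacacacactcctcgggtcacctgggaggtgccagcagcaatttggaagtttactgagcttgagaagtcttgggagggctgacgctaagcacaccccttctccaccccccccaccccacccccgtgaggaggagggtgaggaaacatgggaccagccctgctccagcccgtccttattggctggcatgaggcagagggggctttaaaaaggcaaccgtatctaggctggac
Pax9, Lhx8 and Sost hold none of these letters in this window, Tac1 holds 1 TAATTA, and Mepe holds 1 TATAAA, 1 TAATTA and 2 TGTGGT, with no overlap between them. Among the 14452 tested genes with such a stretch, 9.02% held TATAAA, 3.09% TAATTA and 11.7% TGTGGT. The shares were 8.62%, 2.51% and 10.1% for 557 genes higher in condyle and 7.59%, 3.54% and 13.2% for 395 genes higher in fossa. The median number of CpG dinucleotides was 14 in the condyle genes and 9 in the fossa genes, against 13 in all. These shares are descriptions, and a match is not a binding site. The calls of Mepe and Sost were lost in 8 and 13 of the 21 alternative settings.

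The other called factors of the list were dimmer or moved less. Shox2, a short stature homeobox factor, was bright on both sides at 7.97, 7.94 and 7.65 against 7.17, 7.28 and 7.09. Its difference was small but free of overlap, 1.60-fold (0.67 ± 0.11, adjusted p = 0.0164). Dlx2, a distal-less homeobox factor of the arches, was at least 1.92-fold higher in condyle (1.09 ± 0.22, adjusted p = 0.0347). Barx1, a homeobox factor of tooth and stomach mesenchyme, was above background on 2 condyle arrays and on no fossa array, with a difference of 1.07 ± 0.18 (adjusted p = 0.0197). These 3 calls were lost when single arrays were left out: Shox2 without condyle 1, condyle 2 or fossa 3 (adjusted p up to 0.0601), Dlx2 without any 1 of the 6 joint arrays or whole body 3 (up to 0.0899), and Barx1 without condyle 2 or any 1 fossa array (up to 0.0703). Goosecoid (Gsc), a homeobox factor of the arches, read 4.72, 5.21 and 4.84 against 2.77, 2.85 and 3.15, and its difference of 2.00 ± 0.64 did not pass (adjusted p = 0.131). Dlx5, which marks the lower part of the arches, differed by 0.87 ± 0.25 (adjusted p = 0.0947), Dlx1 by -0.39 ± 0.35 (adjusted p = 0.592) and Prrx1, a broad factor of head mesenchyme, by 0.52 ± 0.39 (adjusted p = 0.521).

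Eya4, a transcriptional cofactor, ran the other way. It read 4.15, 4.47 and 3.37 in condyle and 6.63, 6.94 and 5.78 in fossa. The sides did not overlap, and whole body, at a mean of 6.14, was close to fossa. Eya4 was 5.48-fold higher in fossa (-2.45 ± 0.39, adjusted p = 0.0159). Without condyle 1 its adjusted p was 0.0504, and the call was also lost with a block for replicate number and with a common floor. Of its 4 probe sets 3 lay in this direction, and 1 was called. Over the 21 alternative settings the Eya4 difference ran from -2.79 to -0.70. Called members of a list are named whether or not the fixed naming rule took them. Those it did not take, here Barx1, Dlx2, Shox2, Dlx5, Dlx1 and Prrx1, were chosen after their values were seen.

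Other genes among the 15 largest rises covered signalling peptides, matrix and membranes. Tac1, the precursor of the neuropeptides substance P and neurokinin A, read 8.64, 8.76 and 8.43 in condyle and 4.97, 5.87 and 5.76 in fossa. All 6 arrays measured it, and the sides did not overlap. Tac1 was 8.44-fold higher in condyle (3.08 ± 0.24, adjusted p = 0.00143) and stayed called under all 21 alternatives. It was the only called member among 28 neuronal genes (3.57% of them, against 6.48% of all genes), whose median was -0.33. The summed level of that list was 12.58, 10.52 and 13.61 (log2) in condyle and 11.14, 13.51 and 12.70 in fossa. Its part in the Tac1 difference was not tested.

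Clic6, an intracellular chloride channel family member, had the largest difference of all called genes. It read 8.17, 8.19 and 8.86 in condyle and 2.63, 3.66 and 6.04 in fossa, and was at least 14.7-fold higher (4.29 ± 0.82, adjusted p = 0.0283). The fossa arrays differed widely among themselves, and the call was lost without any 1 condyle array, fossa 1 or fossa 2 (adjusted p up to 0.089). Clic6 is abundant in choroid plexus, the tissue that makes cerebrospinal fluid. The choroid plexus marker Ttr read 9.51, 11.50 and 15.17 in condyle and 6.09, 4.44 and 15.18 in fossa (3.49 ± 2.83, adjusted p = 0.555). Of 14 choroid plexus genes 1 was higher in condyle (Clic6) and 1 higher in fossa (Calml4), 14.3% against 6.48% of all genes. A further 5 were at background on all 6 arrays, including the defining Otx2, Folr1 and Kl. The summed level of the list was 10.36, 11.78 and 15.20 in condyle and 9.38, 9.19 and 15.21 in fossa. Its part in the Clic6 difference was not tested.

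Hs3st3a1, a heparan sulfate sulfotransferase, read 5.79, 5.60 and 6.05 against 2.77, 3.68 and 2.75 and was at least 4.79-fold higher in condyle (2.75 ± 0.30, adjusted p = 0.00415). Col26a1, a collagen chain, read 4.73, 6.22 and 5.90 against 3.06, 3.25 and 3.07 and was at least 4.61-fold higher (2.49 ± 0.35, adjusted p = 0.0103). Erlin2, a lipid raft protein of the endoplasmic reticulum, was at least 4.18-fold higher, with every fossa array at background (2.55 ± 0.22, adjusted p = 0.00188). The folate enzyme of mitochondria Mthfd1l was at least 3.63-fold higher, the kinase Plk2 at least 3.97-fold, Txlna at least 4.97-fold and Ydjc at least 3.96-fold. These 7 genes kept their calls when each array was left out in turn. Stard5, a lipid transfer protein (at least 5.28-fold), Bcl2l13, a mitochondrial Bcl2 relative (at least 4.15-fold), and Fndc3c1 (at least 3.87-fold) did not. Their adjusted p reached 0.0918, 0.114 and 0.117, Stard5 being lost without condyle 2 or 3, fossa 2 or 3 or whole body 2. Bcl2l13 was lost without any 1 joint array or whole body 2, and Fndc3c1 without any 1 joint array or whole body 3.

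**Figure D2:**
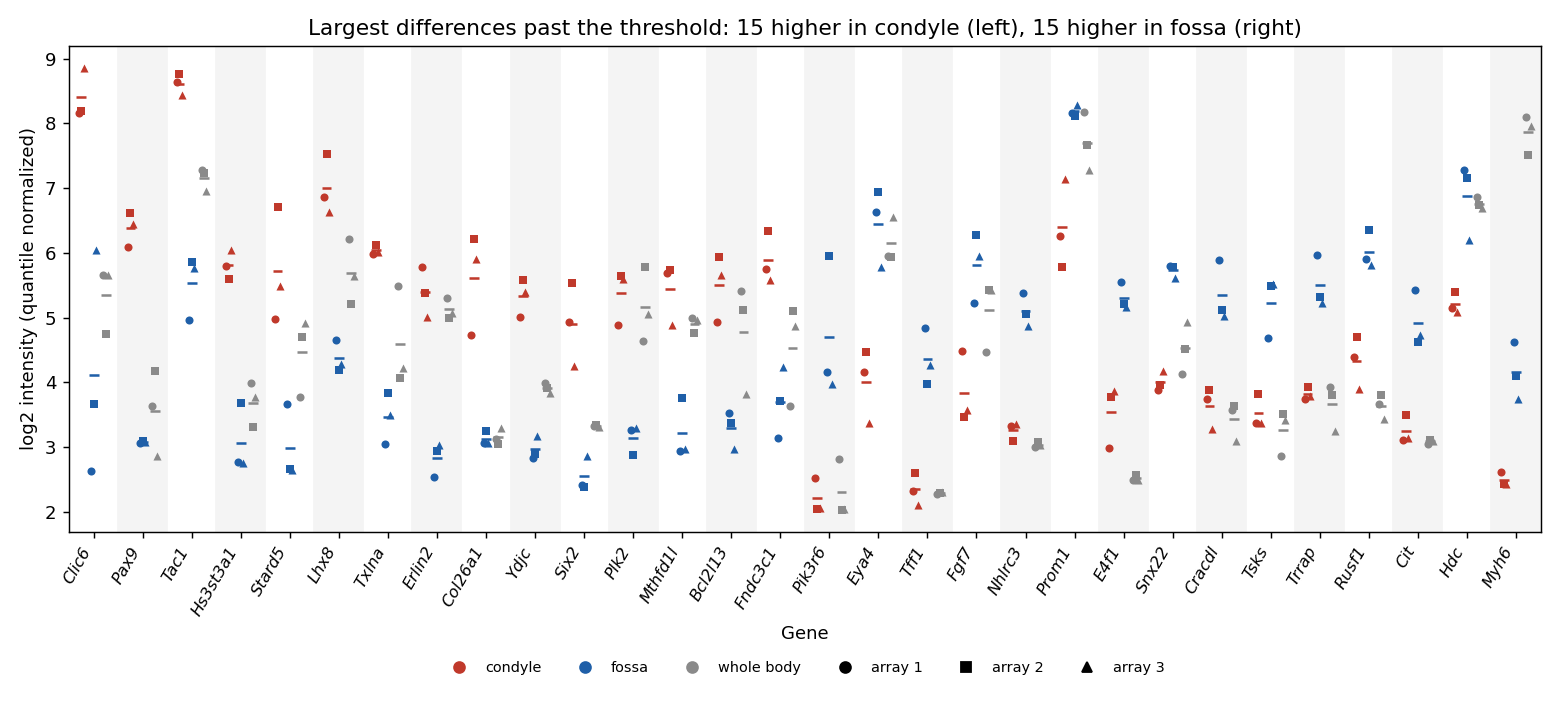
The y axis is log2 intensity after quantile normalization for the 15 called genes highest in condyle over fossa (left) and the 15 highest in fossa over condyle (right). Each symbol is an array (circle 1, square 2, triangle 3) of condyle (red), fossa (blue) or whole body (grey), and short lines are group means of 3 arrays. Red and blue never overlap, since the rule asked for that, and most fossa points on the left sit between 2 and 4.

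The largest called differences toward fossa were those of Pik3r6 (-2.49), Eya4 (-2.45), Tff1 (-2.02) and Fgf7 (-1.98). Fgf7, a growth factor that mesenchyme sends to epithelium, read 4.48, 3.47 and 3.56 in condyle and 5.23, 6.27 and 5.96 in fossa, 3.95-fold higher in fossa (-1.98 ± 0.42, adjusted p = 0.0392). Its call was lost without condyle 2 or 3, fossa 2 or 3 or whole body 2 or 3 (adjusted p up to 0.121), and under 6 other settings, among them the values as deposited and the fit on the 6 joint arrays. Prom1, which encodes the membrane protein prominin, was 3.47-fold higher in fossa at 8.15, 8.12 and 8.28 against 6.25, 5.79 and 7.13 (-1.79 ± 0.36, adjusted p = 0.0341). The fossa arrays were close together, and the call was lost without condyle 1 or 2, any 1 fossa array or whole body 2 (up to 0.109).

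Some fossa genes were steadier. Snx22, a sorting nexin, read 3.88, 3.96 and 4.18 against 5.79, 5.79 and 5.61 and was 3.30-fold higher in fossa (-1.72 ± 0.20, adjusted p = 0.00528). Nhlrc3 was 3.59-fold higher (-1.85 ± 0.14, adjusted p = 0.0012), the zinc finger factor E4f1 3.40-fold (-1.76 ± 0.23, adjusted p = 0.00837) and Trrap, a scaffold of histone acetyltransferase complexes, 3.23-fold (-1.69 ± 0.24, adjusted p = 0.0109). These 4 genes stayed called under all 21 alternatives. Hdc, the enzyme that makes histamine and a marker of mast cells, read 5.15, 5.40 and 5.08 against 7.28, 7.16 and 6.20, 3.18-fold higher in fossa (-1.67 ± 0.27, adjusted p = 0.0167). The call for Hdc was lost without condyle 1, condyle 3 or fossa 2 (adjusted p up to 0.0619).

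The citron kinase gene Cit, which acts in cell division, was 3.19-fold higher in fossa and Rusf1 3.22-fold. Cracdl was 3.26-fold and Tsks, a kinase substrate known from testis, 3.25-fold higher. Cracdl was not called without condyle 1 or 3 (adjusted p up to 0.0552), nor Tsks without condyle 1 or 3 or fossa 2 or 3 (up to 0.066). In 3 genes the condyle arrays were all at background. Tff1, a trefoil peptide of mucosa, was at least 2.72-fold higher in fossa, the cardiac myosin heavy chain gene Myh6 at least 2.36-fold, and Pik3r6, a regulatory subunit of phosphoinositide 3-kinase, at least 3.43-fold. Pik3r6 kept its call in 1 of 9 fits that left out an array, without fossa 2 (adjusted p up to 0.122 in the others). None of 37 skeletal muscle genes was called, and their summed level was 11.77, 10.02 and 12.76 in condyle and 11.73, 13.73 and 12.79 in fossa.

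Wnt signalling, in which secreted Wnt ligands act through Frizzled receptors and beta-catenin, had called members on both sides. Of 59 genes 4 were higher in condyle and 2 higher in fossa, 10.2% against 6.48% of all genes, with a median of 0.09. Rspo1, a secreted protein that strengthens Wnt signals, read 4.31, 4.49 and 4.27 in condyle and 2.89, 2.67 and 2.86 in fossa. It was at least 2.04-fold higher in condyle (1.55 ± 0.11, adjusted p = 0.0011), and fossa was at background on every array. Ror2, a Wnt5a receptor, was measured on all arrays at 6.71, 7.55 and 6.93 against 5.32, 5.86 and 5.24, 3.01-fold higher in condyle (1.59 ± 0.25, adjusted p = 0.0142). Axin1, a scaffold of the complex that breaks down beta-catenin, read 5.15, 5.12 and 5.75 against 3.00, 3.48 and 3.40, at least 3.38-fold higher (2.04 ± 0.21, adjusted p = 0.00318). Rspo1 and Axin1 stayed called under all 21 alternatives. The Wnt target Axin2 read 4.65, 4.37 and 6.08 in fossa, where the last array overlapped condyle, and it did not pass (1.25 ± 0.59, adjusted p = 0.286).

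Secreted Wnt inhibitors were split. Dkk2 was above background on every condyle array and on no fossa array, with a lower bound of 1.07-fold (0.66 ± 0.10, adjusted p = 0.0142). Sost, the osteocyte inhibitor sclerostin, read 2.57, 2.55 and 2.53 in condyle and 3.25, 4.13 and 4.59 in fossa. No condyle array was above background, nor was fossa 1, whose limit was 3.86. Sost was called higher in fossa (-1.44 ± 0.30, adjusted p = 0.0372), and its 2.11-fold is not a strict lower bound. Sfrp4 was at least 1.33-fold higher in fossa (-0.56 ± 0.13, adjusted p = 0.0475). Sost and Sfrp4 each kept the call in 1 of the 9 fits that left out an array, without fossa 1 (adjusted p up to 0.108 and 0.138 in the others). The Frizzled receptor gene Fzd6 read 5.93, 6.36 and 5.99 against 5.25, 3.97 and 4.68, a difference of 1.46 ± 0.36 that did not pass (adjusted p = 0.0648).

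In the FGF pathway, 3 of 24 genes were higher in condyle and 1, Fgf7, higher in fossa, 16.7% in either direction against 6.48% of all genes, with a median of 0.03. Dusp6, a phosphatase that FGF signals induce, read 5.89, 5.63 and 5.45 against 4.19, 4.74 and 3.68 and was 2.74-fold higher in condyle (1.46 ± 0.30, adjusted p = 0.0364). Its call was lost without any 1 condyle array, fossa 1, fossa 3 or whole body 3 (adjusted p up to 0.118). The ligand Fgf18, which acts on growing cartilage, and the target Etv4 were called higher in condyle by 0.40 ± 0.06 and 0.30 ± 0.04, at the edge of background and with no fold. Both turned below 0 after centring on the 75th percentile, at -0.26 and -0.37. Spry4, an inhibitor of the pathway, differed by -0.90 ± 0.32 (adjusted p = 0.168).

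Of 52 BMP and TGF-beta genes 2 were called (3.85% against 6.48% of all genes), both higher in condyle, with a median of 0.02. Tgfbi, a matrix protein induced by TGF-beta, was bright at 11.59, 12.06 and 11.27 against 10.15, 10.18 and 10.63, 2.50-fold higher in condyle (1.32 ± 0.23, adjusted p = 0.0208). It was not called without condyle 1, fossa 1 or fossa 2 (adjusted p up to 0.066). The ligand Bmp7 was at least 1.64-fold higher (0.89 ± 0.20, adjusted p = 0.0473), a call kept in 1 of 9 fits that left out an array, without fossa 2 (up to 0.129 in the others).

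Among 18 genes of the insulin-like growth factor and parathyroid hormone-related axis, 2 were higher in condyle and 1 higher in fossa. That is 16.7% called in either direction against 6.48% of all genes, and the list's median was 0.00. Igfbp2, a secreted binding protein, read 5.88, 5.46 and 5.86 against 4.22, 4.22 and 4.05, 2.97-fold higher in condyle (1.57 ± 0.20, adjusted p = 0.00778). The insulin receptor substrate Irs1 was 1.59-fold higher at 9.76, 9.63 and 9.70 against 8.87, 9.11 and 9.09 (0.67 ± 0.12, adjusted p = 0.0201). Irs1 lost its call without any 1 condyle array, fossa 1 or fossa 3 (adjusted p up to 0.0735). Irs2 was called higher in fossa by 0.52 (-0.52 ± 0.04), but all 6 arrays were at background. The ligand Igf1 read 10.13, 9.86 and 8.08 against 6.20, 8.88 and 8.21, and did not pass (1.59 ± 0.79, adjusted p = 0.31).

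Hedgehog signalling, which patterns the condylar cartilage, had 2 called genes of 26, both higher in condyle, with a median of 0.02. That is 7.69% of the list, near the 6.48% of all genes called in either direction. Ccnd1, a G1 cyclin that is also a Hedgehog target, read 8.85, 8.94 and 8.44 against 7.28, 7.82 and 7.34, 2.40-fold higher in condyle (1.26 ± 0.19, adjusted p = 0.0129; 0.0515 without condyle 1). Evc2, a ciliary partner of Smo, was 2.87-fold higher (1.52 ± 0.34, adjusted p = 0.0495), a call kept in 1 of 9 fits that left out an array, without fossa 1 (up to 0.141 in the others). The receptor gene Ptch1 was bright on both sides at 11.01, 11.19 and 10.38 against 11.17, 11.24 and 10.34, and differed by -0.06 ± 0.38 (adjusted p = 0.967). The receptor partner Smo differed by 0.03 ± 0.27, the activator Gli2 by 0.11 ± 0.24 and Gli1 by 0.42 ± 0.84, with Gli1 at 6.15, 4.62 and 2.42 on the fossa arrays. The inhibitor Hhip differed by -0.15 ± 0.35. The ligand Ihh was at background on all 9 arrays, while Shh was above it on 2 condyle arrays only.

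Of 18 retinoic acid genes 1 was called (5.56% against 6.48% of all genes): the receptor Rarg, at least 2.51-fold higher in condyle (1.44 ± 0.27, adjusted p = 0.0251). That call was lost without condyle 1 or 2 or any 1 fossa array (adjusted p up to 0.0847). None of 24 Notch genes was called, and their median was -0.25; the ligand Jag1 read 6.31, 6.99 and 6.27 against 7.38, 6.93 and 7.72 (-0.82 ± 0.26, adjusted p = 0.12). Of 44 ephrins, semaphorins and receptors 2 were called, 4.55% against 6.48% of all genes. Robo1, a receptor for Slit guidance cues, was 3.20-fold higher in condyle at 6.05, 6.85 and 6.65 against 4.40, 5.26 and 4.87 (1.68 ± 0.29, adjusted p = 0.0193). Robo1 was not called without condyle 2, condyle 3 or fossa 3 (up to 0.0664). With all its probe sets averaged the Robo1 difference was 0.31 (adjusted p = 0.353). Efna1, an ephrin ligand, was 2.10-fold higher in fossa (-1.07 ± 0.17, adjusted p = 0.0157), and lost its call without condyle 2 or 3 (up to 0.0572).

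Of 33 Hox genes 4 were called, 2 in each direction, 12.1% against 6.48% of all genes. No called difference exceeded 0.92, and 18 of the 33 were at background on all 6 arrays. Hoxa7 was called higher in fossa, at 3.73, 3.54 and 3.60 against 2.97, 2.53 and 2.62 (-0.92 ± 0.13, adjusted p = 0.00945). Fossa 1 was under its limit of 3.86, so the 1.61-fold is not a strict lower bound. The Hoxa7 call was lost with a common floor. Hoxb9 and Hoxc10 were at background on all 6 joint arrays, and of the joint arrays only those of condyle were above it for Hoxd9. Hoxc10 and Hoxd9 turned below 0 after centring on the 75th percentile (-0.40 and -0.20).

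Of 38 DNA replication genes 5 were higher in condyle and 0 higher in fossa, 13.2% against 3.76% of all genes in that direction, and 9 of the 38 differences lay below 0. The list's median was 0.27, and it lay above 0 under every scaling tried (0.22 to 0.89). Mcm10, an initiation factor, read 6.47, 6.54 and 6.50 in condyle and 5.58, 5.60 and 5.16 in fossa, 2.08-fold higher (1.05 ± 0.12, adjusted p = 0.0052), and stayed called under all 21 alternatives. Mcm3, a subunit of the replicative helicase, read 7.28, 7.05 and 7.09 against 6.19, 5.94 and 5.92, 2.18-fold higher (1.12 ± 0.15, adjusted p = 0.00837). Mcm7, another helicase subunit, was bright at 11.76, 11.71 and 11.84 against 10.94, 10.68 and 11.06, 1.84-fold higher (0.88 ± 0.13, adjusted p = 0.0124). The clamp loader gene Rfc3 was at least 1.93-fold higher (1.31 ± 0.18, adjusted p = 0.00964). With all probe sets of a gene averaged, Mcm7 differed by 0.63 (adjusted p = 0.243) and Rfc3 by 0.77 (adjusted p = 0.0849), and neither was called, nor with a common floor (adjusted p = 0.0665 and 0.292). Uhrf1, which keeps DNA methylation through replication, was 1.97-fold higher (0.98 ± 0.21, adjusted p = 0.0426), but kept the call in 1 of 9 fits that left out an array, without fossa 1 (up to 0.128 in the others). In whole body these genes were near the condyle level for Uhrf1, at a mean of 6.76, and under it for Mcm7, at 10.56.

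Of 27 G1 cyclins, kinases and inhibitors 5 were higher in condyle and 0 higher in fossa, 18.5% against 3.76% of all genes in that direction. The list's median was 0.08, and 10 of the 27 differences lay below 0. Besides Ccnd1 these were the cyclin Ccnd3, the kinase Cdk2, the inhibitor Cdkn1b and the antiproliferative gene Btg2, so the group holds both drivers and brakes of the cycle. Ccnd3 was at least 2.17-fold higher (1.14 ± 0.23, adjusted p = 0.0321), but was not called in any of the 9 fits that left out an array (adjusted p up to 0.0782). Cdkn1b was 1.84-fold higher (0.88 ± 0.17, adjusted p = 0.0283; up to 0.0943, lost without condyle 2 or 3, any 1 fossa array or whole body 2). Cdk2 was at least 1.39-fold higher and lost its call without condyle 2 or 3 or any 1 fossa array (up to 0.0808). Btg2 kept its call throughout those fits, at the edge of background, and turned to -0.06 after centring on the 75th percentile.

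Mitosis genes had the highest median of the 40 lists, 0.42, yet only 2 of 39 were called (5.13% against 6.48% of all genes), 1 in each direction. Plk1, a mitotic kinase, was at least 1.69-fold higher in condyle (1.24 ± 0.27, adjusted p = 0.0426), and Nek2, a centrosome kinase, was 1.66-fold higher in fossa (-0.73 ± 0.12, adjusted p = 0.0164). Plk1 lost its call without condyle 2 or 3, fossa 1 or 2 or any 1 whole body array (up to 0.13), and Nek2 without condyle 1 or 2 (up to 0.0624). For Ube2c, which drives exit from mitosis, values of 7.67, 7.48 and 6.95 stood against 6.69, 5.21 and 6.60 (1.20 ± 0.42, adjusted p = 0.157). The mean of the 38 mitosis genes above background was 7.30, 7.48 and 7.05 in condyle and 7.30, 6.67 and 6.92 in fossa, so fossa 1 overlapped the condyle arrays.

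Of 31 glycolysis and hypoxia genes 4 were higher in condyle and 0 higher in fossa, 12.9% against 3.76% of all genes in that direction. Of the 31 differences 10 lay below 0, with a median of 0.18 that stayed above 0 under every scaling tried (0.09 to 0.76). Ldha, the lactate dehydrogenase subunit of anaerobic tissue, was bright at 12.01, 11.79 and 11.34 in condyle against 9.95, 10.57 and 10.55 in fossa. It was 2.57-fold higher (1.36 ± 0.23, adjusted p = 0.0193), with whole body, at 9.9, near the fossa level, and lost its call without condyle 1 or 2 (up to 0.0691). Pgam1, a glycolytic mutase, read 9.92, 10.07 and 10.09 against 8.81, 9.07 and 8.99, 2.10-fold higher (1.07 ± 0.11, adjusted p = 0.00378), and stayed called under all 21 alternatives. The hypoxia target Bnip3 was 1.99-fold higher (0.99 ± 0.22, adjusted p = 0.0466). It was not called without any 1 condyle array, fossa 2 or any 1 whole body array (up to 0.139). Car9, a carbonic anhydrase induced by hypoxia, was called (0.41 ± 0.06) with all 6 arrays at background. The glycolytic genes Pfkfb3, Pfkl and Pkm differed by 1.91 ± 0.54, 1.71 ± 0.41 and 1.33 ± 0.39 and did not pass (adjusted p = 0.0955, 0.0597 and 0.1).

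Of 42 mitochondrial respiratory chain genes 0 were higher in condyle and 2 higher in fossa, 4.76% against 2.72% of all genes in that direction, with a median of -0.13. Cox7a2 read 12.68, 12.76 and 12.68 against 13.17, 13.00 and 13.14 (-0.39 ± 0.07, adjusted p = 0.0198), and Ndufb8 differed by -0.36 ± 0.06 (adjusted p = 0.0228). Their direction rests on the scaling: as deposited, Cox7a2 differed by 0.08 and Ndufb8 by 0.18. Cox7a2 was also lost without condyle 1 or 3 or fossa 1 or 3 (adjusted p up to 0.0724), and Ndufb8 without condyle 1 or 2 or fossa 2 or 3 (up to 0.0784). None of 35 cytosolic ribosomal protein genes and none of 39 immediate early and stress genes was called, with medians of 0.08 and 0.05.

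**Figure D3:**
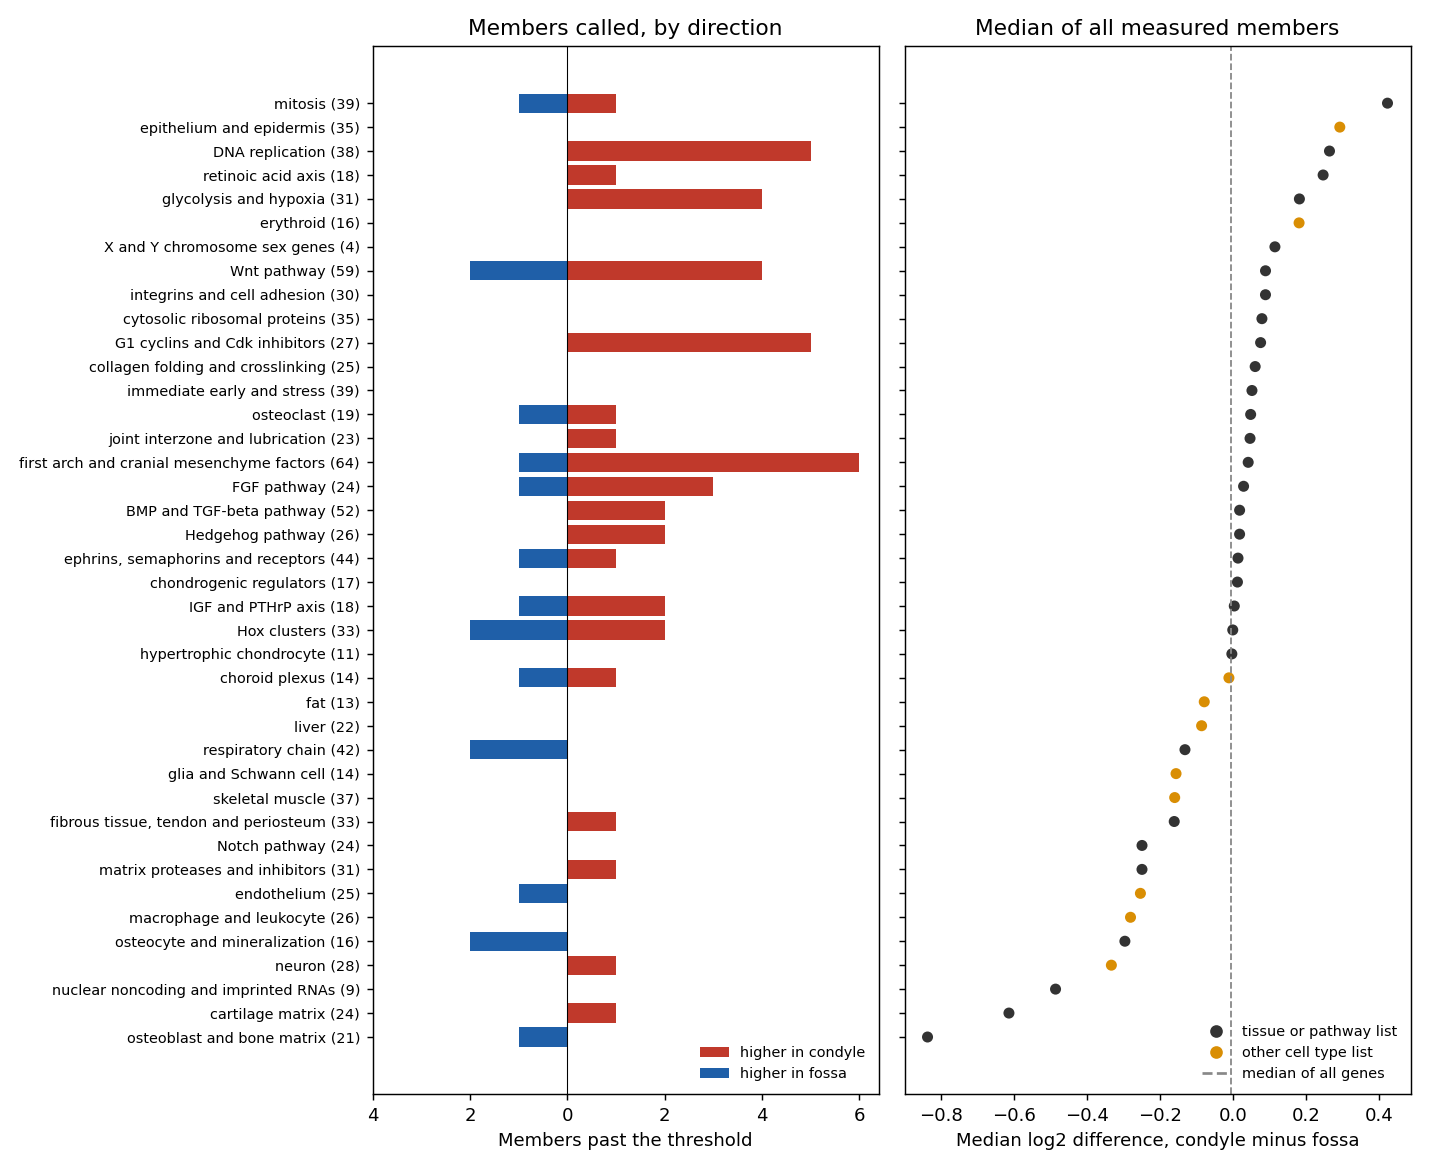
The left panel counts the members of each of 40 gene lists called higher in condyle (red, to the right) or higher in fossa (blue, to the left), with the number of measured members in brackets. The right panel gives the median log2 difference of all measured members, with other cell type lists in orange and the median of all genes dashed. Replication, cyclin, glycolysis and first-arch lists have red bars of 4 to 6 genes, and the bone and cartilage matrix lists have the lowest medians, -0.84 and -0.61, with 1 called gene each.

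Cartilage matrix genes were expressed on both sides, and most did not pass the threshold. Of 24 genes 1 was higher in condyle and 0 higher in fossa, 4.17% against 6.48% of all genes in either direction. Of the 24 differences 20 lay below 0, with a median of -0.61 that kept its sign under every scaling tried (-0.74 to -0.07). Aggrecan (Acan) read 10.31, 10.85 and 9.97 in condyle and 10.88, 11.36 and 9.95 in fossa, against a whole body mean of 4.1. Col2a1, the main collagen of cartilage, read 9.19, 9.71 and 8.49 against 11.27, 9.86 and 8.17, and Comp, a cartilage matrix protein, 9.94, 9.89 and 10.79 against 10.61, 11.93 and 11.18. The sides overlapped for all 3, and none passed (-0.35 ± 0.74, -0.64 ± 0.84 and -1.03 ± 0.39; adjusted p = 0.863, 0.743 and 0.188). Matn1, a matrilin of cartilage, read 4.92, 5.31 and 4.06 against 5.73, 7.66 and 5.54, without overlap, and did not pass (-1.55 ± 0.59, adjusted p = 0.189). Sox9, the chondrocyte transcription factor, read 4.70, 4.42 and 4.60 against 3.86, 4.30 and 4.36 (0.40 ± 0.18, adjusted p = 0.254).

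The called cartilage gene was Prelp, a leucine-rich proteoglycan, at 5.37, 6.36 and 4.47 against 2.95, 3.79 and 3.36. It was at least 3.33-fold higher in condyle (2.04 ± 0.46, adjusted p = 0.0477), but kept the call in 1 of 9 fits that left out an array, without condyle 3 (up to 0.126 in the others). None of 11 hypertrophic chondrocyte genes was called. Col10a1, which marks hypertrophy, was at background on all 9 arrays, and Panx3, a channel of maturing chondrocytes and osteoblasts, read 10.75, 10.82 and 10.32 against 8.39, 11.49 and 10.17 (0.62 ± 0.71, adjusted p = 0.695). Pth1r, the parathyroid hormone receptor, read 7.16, 7.13 and 7.07 against 7.22, 9.31 and 8.25 (-1.14 ± 0.51, adjusted p = 0.257).

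Among 23 joint interzone and lubrication genes 1 was called (4.35% against 6.48% of all genes). Has2, which makes hyaluronan, read 5.95, 5.55 and 5.18 in condyle and 3.46, 3.59 and 3.35 in fossa, at least 3.88-fold higher in condyle (2.09 ± 0.29, adjusted p = 0.0101), and kept its call when each array was left out in turn. Prg4, which encodes lubricin, and Gdf5, the interzone ligand, were at background on all 9 arrays. Of 33 fibrous tissue genes 1 was called (3.03%): S100a4, a calcium-binding protein of fibroblasts, 2.46-fold higher in condyle (1.30 ± 0.25, adjusted p = 0.0309). It was not called without condyle 1 or 2, fossa 1 or whole body 2 or 3 (up to 0.0986). The microfibril gene Fbn2 read 9.59, 9.95 and 7.88 against 6.31, 7.48 and 8.05, so the sides overlapped (1.86 ± 0.64, adjusted p = 0.154). Of 31 matrix protease genes 1 was called (3.23%), Adam19, 1.37-fold higher in condyle (0.45 ± 0.10, adjusted p = 0.0426), a call lost without any 1 joint array or whole body 2 (up to 0.124). No member passed among 25 collagen folding, 30 integrin and adhesion and 17 chondrogenic regulator genes, and Plod2, a collagen lysyl hydroxylase, differed by 1.56 ± 0.44 (adjusted p = 0.0923).

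For many bone genes the condyle arrays disagreed, condyle 1 reading higher than condyle 2 and 3, and fossa 1 often read lower than fossa 2 and 3. Most of the large differences did not pass. Dmp1, a matrix protein of osteocytes, read 9.39 on condyle 1 and 5.30 and 6.02 on condyle 2 and 3, against 8.69, 11.31 and 11.09 in fossa. Phex, an osteocyte endopeptidase, read 8.88, 3.23 and 3.94 against 6.37, 8.99 and 8.60. Condyle 1 lay above fossa 1 for both genes, so neither parted the sides, and neither was called (-3.46 ± 1.16 and -2.64 ± 1.49; adjusted p = 0.144 and 0.378). Ibsp, the bone sialoprotein, read 12.33, 9.46 and 9.81 against 10.81, 13.73 and 12.61, and Col1a1, the main collagen of bone, 13.86, 11.82 and 11.79 against 12.81, 13.85 and 13.80. Among the 20 bone genes above background, condyle 1 was the highest of the condyle arrays for 16, as it was for 30.2% of the 11906 genes above background by the same rule. All 3 fossa arrays lay above condyle 2 and 3 for 12 of the 20, against 15.8% of those genes. They lay above all condyle arrays for 3 of the 20, near the 12.1% of those genes. The fossa arrays disagreed too: fossa 1 was the lowest of them for 15 of the 20 bone genes and for 9 of 15 osteocyte genes. No share over all genes was taken for fossa 1. It was also the lowest for 27 of 27 neuron, 30 of 42 BMP and TGF-beta and 19 of 26 skeletal muscle genes, but for 1 of 32 epithelial and 0 of 8 fat genes. A low fossa 1 was therefore not particular to bone genes.

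**Figure D4:**
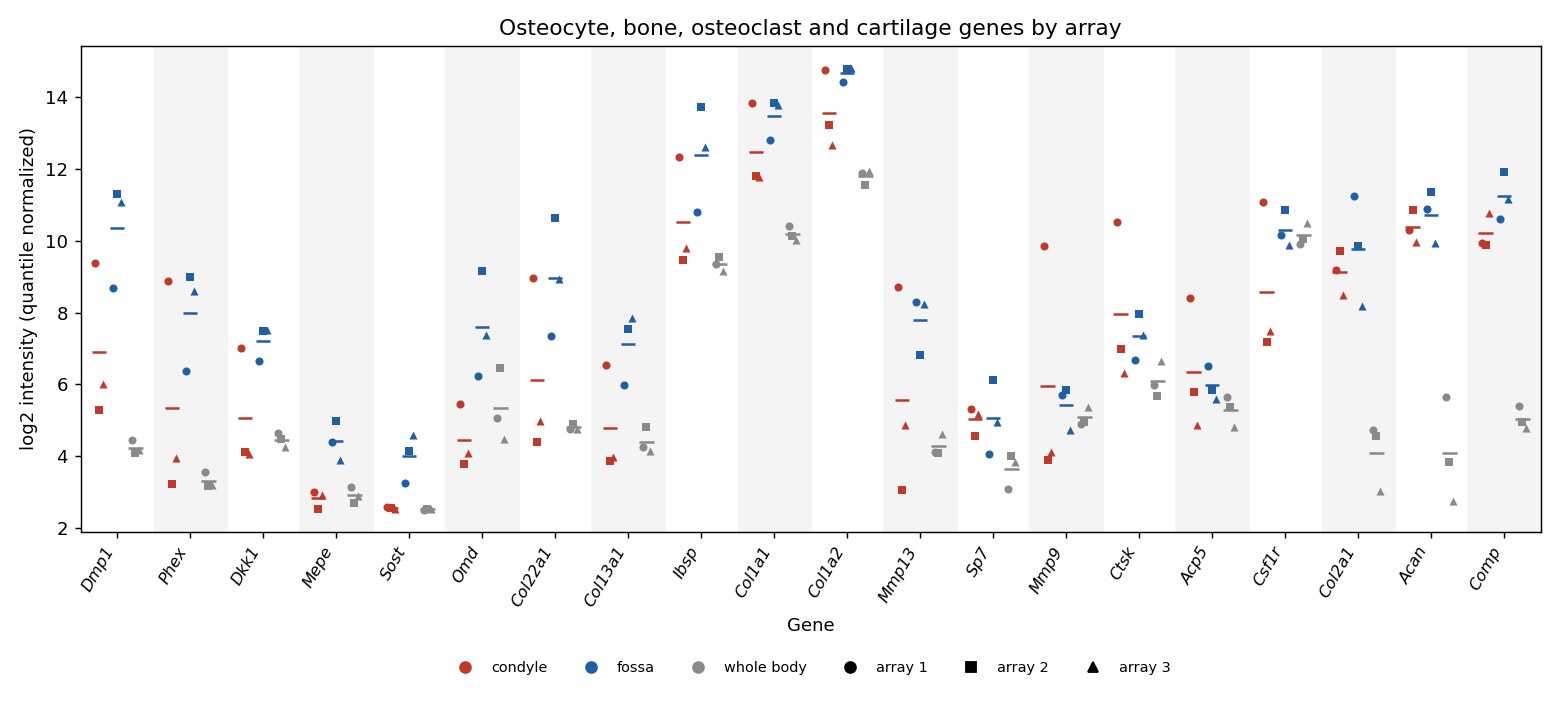
The y axis is log2 intensity after quantile normalization for osteocyte, bone, osteoclast and cartilage genes, with circles, squares and triangles for arrays 1, 2 and 3 of condyle (red), fossa (blue) and whole body (grey), and lines at group means. For Dmp1, Phex, Col1a1 and Csf1r the red circle, condyle 1, lies among or near the blue points while the red square and triangle lie below them. Acan and Comp overlap between the sides and stand above whole body.

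Of 21 osteoblast and bone matrix genes 0 were higher in condyle and 1 was higher in fossa, 4.76% against 6.48% of all genes in either direction. The list's median was -0.84 and lay below 0 under every scaling tried (-0.92 to -0.25). Of 16 osteocyte genes 0 were higher in condyle and 2 higher in fossa (12.5%, against 2.72% of all genes in that direction), with a median of -0.30 that turned to 0.21 as deposited. The called genes were Mepe, on both lists, and Sost. Mepe, a phosphoglycoprotein of osteocytes whose promoter is shown above, read 3.00, 2.54 and 2.92 in condyle and 4.41, 4.99 and 3.89 in fossa. It was at least 2.77-fold higher in fossa (-1.61 ± 0.28, adjusted p = 0.0215), and for it condyle 1 stood with the other condyle arrays. Its call was lost without any 1 condyle array or fossa 1 (up to 0.0739). Omd, an osteoblast proteoglycan, read 5.45, 3.78 and 4.08 against 6.24, 9.17 and 7.37, with no overlap, and did not pass (-3.15 ± 0.88, adjusted p = 0.0909). Sp7, the osteoblast transcription factor, differed by -0.03 ± 0.53 (adjusted p = 0.989).

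Without condyle 1, 643 genes were called (3.53%), 391 higher in condyle (2.15%) and 252 higher in fossa (1.39%), with 3 of 21 bone matrix genes and 3 of 16 osteocyte genes among the latter. The difference of Dmp1 became -4.70 ± 0.80 (adjusted p = 0.0394) and that of Phex -4.41 ± 0.78 (adjusted p = 0.0443). Col13a1, a transmembrane collagen, differed by -3.22 ± 0.56 (adjusted p = 0.0421) and Dkk1, a Wnt inhibitor, by -3.12 ± 0.28 (adjusted p = 0.0089). Mmp13, a collagenase, differed by -3.81 ± 0.68 (adjusted p = 0.0438), and Col1a2 and Alpl, a type I collagen chain and the bone phosphatase, by -1.72 ± 0.22 and -0.99 ± 0.15 (adjusted p = 0.0199 and 0.0308). Other bone genes did not pass in that fit, among them Col1a1 (-1.68, adjusted p = 0.0581), Ibsp (-2.75, adjusted p = 0.148), Omd (-3.66, adjusted p = 0.119), Col22a1 (-4.29, adjusted p = 0.0674) and Sparc (-1.10, adjusted p = 0.318). Mepe and Sost were not called in that fit (adjusted p = 0.0581 and 0.107). It rests on 2 condyle arrays and these genes were singled out after the values of condyle 1 were seen.

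Osteoclast and macrophage genes shared the high condyle 1 but not the low fossa 1. Condyle 1 was the highest condyle array for 7 of 12 osteoclast and 13 of 17 macrophage genes above background, against 30.2% of all such genes. Fossa 1 was the lowest fossa array for 3 and 6 of them. A high condyle 1 was not particular to these lists, since it held for 27 of 33 fibrous tissue and 16 of 18 endothelial genes. Ctsk, the collagen-degrading cathepsin of osteoclasts, read 10.54, 7.00 and 6.32 in condyle and 6.68, 7.96 and 7.38 in fossa, and Mmp9 read 9.86, 3.90 and 4.11 against 5.72, 5.83 and 4.73. Condyle 1 was the brightest of all 6 arrays for both, and for the osteoclast phosphatase Acp5, at 8.41. Csf1r, the macrophage colony-stimulating factor receptor, read 11.08, 7.19 and 7.48 against 10.15, 10.87 and 9.90, and was called without condyle 1 (-2.97 ± 0.32, adjusted p = 0.013) but not with it (-1.72 ± 0.99, adjusted p = 0.386). Of 19 osteoclast genes 1 was higher in condyle and 1 higher in fossa, 10.5% against 6.48% of all genes. These were the calcitonin receptor Calcr (0.68 ± 0.05), at the edge of background in condyle, and Dcstamp (-0.18 ± 0.04), at background throughout. None of 26 macrophage and leukocyte genes was called with all arrays. Their summed level was 12.30, 9.26 and 9.66 in condyle and 11.33, 12.06 and 11.31 in fossa, and that of the osteoclast genes 12.38, 9.30 and 9.23 against 10.79, 11.30 and 10.57. The part of these cell types in the bone differences was not tested.

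Genes of other tissues varied from array to array on both sides. Epithelial genes were low on fossa 2 and present on the other 5 joint arrays: Krt5, a basal keratin, read 9.54, 10.91 and 11.18 in condyle and 10.76, 5.58 and 10.85 in fossa (1.49 ± 1.39, adjusted p = 0.616). The summed level of 35 epithelial genes was 14.89, 16.30 and 15.53 against 16.45, 11.86 and 15.88, and none was called. Fat genes were high on fossa 1, where Fabp4 read 12.27 against 6.51 to 10.16 on the other joint arrays. Endothelial genes were low on condyle 2 and 3, with Plvap at 7.60, 5.65 and 5.41 against 7.23, 8.05 and 8.06 (-1.56 ± 0.58, adjusted p = 0.178). Of 25 endothelial genes 1 was called (4% against 6.48% of all genes): Esam, a junction protein, 1.55-fold higher in fossa (-0.63 ± 0.09, adjusted p = 0.0118). Esam lost its call in 5 of 21 alternative settings (adjusted p up to 0.948). These were the values as deposited, median centring, a block for replicate number, leaving out genes at background on all 6 joint arrays, and a common floor. No gene passed among 14 glial, 22 liver, 16 erythroid and 13 fat genes. Xist, the X inactivation RNA, was bright on all 6 joint arrays at 9.25 to 11.70. The part of these tissues in the results was not tested.

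**Figure D5:**
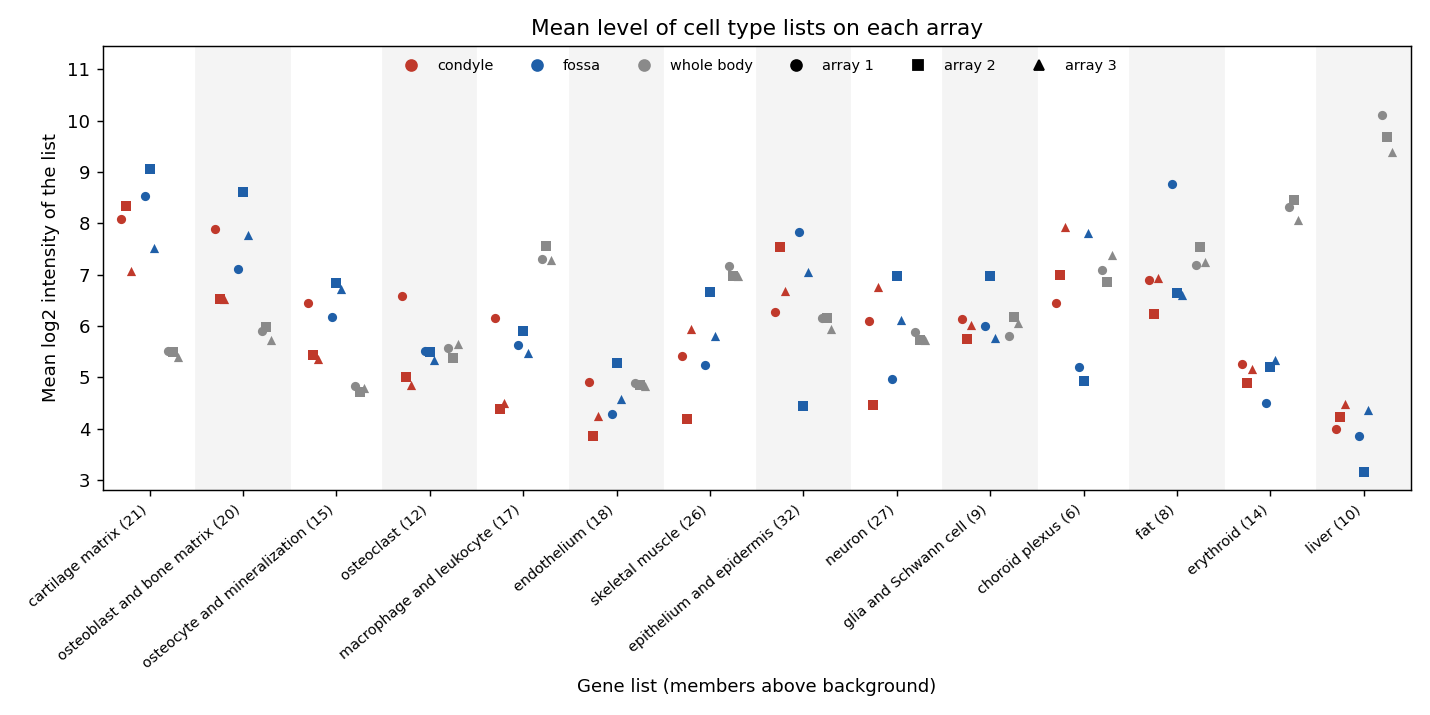
The y axis is the mean log2 intensity of the members of each cell type list that were above background (number in brackets), with 1 symbol per array (circle 1, square 2, triangle 3) for condyle (red), fossa (blue) and whole body (grey). Condyle 1 is above the other condyle arrays for bone, osteoclast and macrophage genes, fossa 2 is lowest for epithelium at 4.43, and fossa 1 is highest for fat at 8.76.

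Among the genes measured well on both sides, some parted the joint although no list held them; they were chosen after their values were seen. Ecrg4, a secreted growth suppressor, read 13.20, 12.91 and 11.96 in condyle against 11.35, 11.24 and 10.73, a difference of 1.58 (adjusted p = 0.0422). Its call was kept in 1 of 9 fits that left out an array, without condyle 3 (up to 0.129 in the others). Cdc42ep3, an effector of the GTPase Cdc42, differed by 1.59 (adjusted p = 0.00989) and kept its call in all 9. Cks1b, a partner of cyclin-dependent kinases, differed by 0.53 (adjusted p = 0.0203), lost without condyle 1 or 2 or fossa 1 or 3 (up to 0.0741). On the fossa side Tcn2, which carries vitamin B12, differed by -1.37 (adjusted p = 0.0297), lost without condyle 2 or 3 or fossa 1 (up to 0.0971).

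Many genes have several probe sets. Of 475 called genes with several, 208 had all of them in 1 direction. In the stated direction were 1 of 2 probe sets for Col26a1, 2 of 4 for Cit, 3 of 5 for Mcm3 and 2 of 3 for Mcm10. Averaging the probe sets in place of taking the brightest ended further calls. The condyle differences became 0.82 for Stard5, 0.18 for Shox2, 0.39 for Ccnd3, 0.44 for Cdkn1b, 0.64 for Rarg, 0.41 for Bmp7, 0.23 for Adam19 and 0.45 for Uhrf1. Prelp (1.44) and Ccnd1 (0.87) also lost their calls. On the fossa side Sost became -0.57, Nek2 -0.22, Hdc -1.25, Cox7a2 -0.36 and Tcn2 -0.78, none of them called.

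Set against whole body, 191 of the 684 genes higher in condyle had all condyle arrays above and all fossa arrays below all whole body arrays. In the other direction 58 of 494 did so. Only called genes were counted, so no share over all genes stands beside these counts, and they are a description. Without regard to whole body, all condyle arrays lay above all fossa arrays for 17.7% of all genes, and the reverse held for 17.8%. Differences ran down to 0.17 in the condyle set and to -0.18 in the fossa set. The condyle set was led by Tac1, Stard5, Lhx8, Txlna, Ydjc, Six2 and Axin1, and also held Ror2, Rspo1, Robo1, Mcm3 and Mcm10. For Tac1 whole body stood at a mean of 7.2, between 8.43 to 8.76 in condyle and 4.97 to 5.87 in fossa. Pax9 was not in the set, since its fossa arrays, at or near background, lay within the whole body range. The whole body arrays also entered the estimate of the spread, so these positions are not independent of the fit.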

How the data were processed

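Fresh frozen tissue was laser captured, its RNA was converted to biotin-labelled cRNA and hybridised to Affymetrix arrays, per the labels' protocols. The authors deposited linear intensity values for 45101 probe sets. The submitters' processing notes name limma without a version; background correction and normalization are not given in the sources used here. Here values under 1 were set to 1, taken to log2, quantile-normalized over 9 arrays and named through the platform table (34945 probe sets with 1 symbol, 932 with several, 9160 with none). The probe set with the highest mean stood for a gene. limma 3.58.1 (R 4.3.3) fitted 3 groups, and p-values were adjusted by Benjamini-Hochberg over 18193 genes. The labels do not tie samples to separate embryos, so the p-values reflect only how far these samples vary, which may be technical.

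Named genes were the 15 largest rises and 15 largest falls called without overlap, up to 5 members of each list above background on 2 arrays, and a short list of joint and bone genes. Members and lists were chosen with earlier results of these data known. The pipeline was tested on simulated data. An exact permutation of 3 against 3 arrays cannot go below p = 0.1, so none is given. The number of arrays limits precision.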

Additional observations from a re-analysis of the deposited data

How the results depend on the processing

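The count of called genes depended on scaling, background and the fit. As deposited, 3430 genes were called, 3036 of them higher in condyle, with 201 list members and 86 of the named genes. Median centring gave 3362 calls, 2785 of them higher in condyle, with 196 list members. Centring on the 75th percentile gave 7154 calls, 6443 of them higher in fossa, with 271 list members and 104 named genes. With the replicate block, 517 genes were called (319 higher in condyle, 198 higher in fossa), with 29 list members and 34 named genes. Deviations of same-numbered condyle and fossa arrays correlated at -0.37, -0.46 and 0.16 over 8185 genes. Those of arrays with unlike numbers correlated at -0.17 to 0.48. Genes of other tissues varied from array to array, so these values cannot tell whether same-numbered samples share an embryo or litter. The labels do not say. Leaving out genes at background on all 6 joint arrays gave 386 (249 and 137), with 34 list members. A common floor gave 80 (46 and 34), with 8 list members and 15 named genes. A trended, robust prior gave 1687 calls, 922 higher in condyle and 765 higher in fossa, and array weights gave 1816 (1030 and 786), with 89 list members. Leaving out each array in turn gave 643 to 1299 genes, 391 to 728 higher in condyle and 252 to 571 higher in fossa, with 33 to 58 list members and 37 to 54 named genes.

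Direction turned for Cox7a2 (0.085) and Ndufb8 (0.18) as deposited, and (0.059 and 0.15) with median centring. With centring on the 75th percentile it turned for Ihh (-0.70), Prg4 (-0.66), Etv4 (-0.37), Fgf18 (-0.26), Hoxc10 (-0.40), Hoxd9 (-0.20), Btg2 (-0.055) and Car9 (-0.30). The cause was not tested. Of the 55 called genes the naming rule took, 15 were called under all 21 alternatives, 12 were lost in 1, and 31 kept the call in every fit that left out an array. Signal near background limits most of the called genes.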
